A study of Macaca mulatta with 16 samples.

Results

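The comparison of naive with memory CD8+ T cells rested on 8 of the 16 ATAC-seq peak lists of this series, the 4 labelled CD8 naive and the 4 labelled CD8 memory, matched by animal and time from the sample titles. ATAC-seq cuts accessible DNA with a transposase, and the stretches cut most often are called as peaks. The cells were sorted from peripheral blood of 2 rhesus macaques, RhDBCb (animal 1) and RhM22 (animal 2), and each animal gave 1 naive and 1 memory CD8+ library at each of 2 times. The first time was without treatment. The second followed subcutaneous 2-hydroxypropyl-beta-cyclodextrin (Kleptose HBP, a cholesterol-binding sugar ring) at 1 ml/kg of a 15% (w/w) solution per day for up to 120 days, so treatment and time cannot be told apart. Both states of an animal came from the same time, so the treatment was shared by the groups compared. Merging the peaks of these 8 lists wherever they overlapped by 1 bp or more gave 51563 regions, against 55449 when all 16 lists of the series are merged. A region is called open in a library that has a peak in it. The lists hold no read counts, so depth is unknown, and where a list has no peak the chromatin may still have been open. Positions are in the build rheMac10. No gene annotation of that build was used here, so genes at the regions are not named and the sorted states were not checked against marker genes. Which surface markers separated naive from memory cells is not given in the sources used here.

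CD8+ T cells recognise fragments of intracellular proteins shown on MHC class I molecules and can kill the cells that show them. Naive CD8+ cells have not met their antigen and circulate between blood and lymphoid organs. Memory CD8+ cells descend from cells that have divided after meeting it, and they are known for keeping regulatory DNA near effector genes accessible, which goes with their fast recall of killing and cytokine secretion. Blood memory cells are a mixture of subsets that differ in homing and effector potential, and the labels give no split of them.

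Most of the open chromatin map was shared by the states. Of the 51563 regions, 25983 (50.4%) were open in all 8 libraries, 34941 were open in at least 1 library of each state, and 6278 (12.2%) were open in 1 library. Regions found only in naive lists numbered 7166 and those found only in memory lists 9456. Among the latter, 3979 were open in 1 memory library and none else, and among the former 2299 were open in 1 naive library.

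Complete separation of the states was the most frequent way for a region to be open in 4 of the 8 libraries. It was seen for 1763 regions with a peak in each of the 4 naive libraries and in no memory library (3.42% of all regions) and for 2423 with the reverse (4.70%), a ratio of memory to naive of 1.37. The size of the memory excess varied with the libraries and settings. It shrank with lists of equal length (1881 naive and 2061 memory) and turned in animal 2 alone, with 4981 naive and 4103 memory regions. An excess remained in animal 1 alone (2825 naive and 4650 memory), before treatment alone (2400 and 3647) and after it alone (3151 and 3695). With only peaks of a summit −log10 p of at least 3.42 the counts were 1140 naive and 1897 memory. What sets the excess was not tested. All other patterns of 4 open libraries added up to 1271 regions, 703 of them open in 2 libraries of each state. Fisher's exact test, two-sided, gave each separated region p = 0.0286, and Benjamini-Hochberg adjustment over the 5457 regions open in 4 of 8 libraries gave 0.0372. The share of tested regions called was 32.3% towards naive and 44.4% towards memory cells. Regions open in another number of libraries could not reach a p under 0.05 and were not tested, and the adjusted p rests on that filter. With regions open in 2 to 6 of 8 libraries tested, the adjusted p was 0.117 and no region was called, while the same 1763 and 2423 regions had an unadjusted p under 0.05. The replicate block, an exact McNemar test over the 4 pairs of libraries from 1 animal at 1 time, called 0 regions because its smallest p is 0.125, and with any 1 library left out the Fisher test also called 0. With 2 animals per state, the p-values cover the spread between libraries and not that between many animals.

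**Figure D1:**
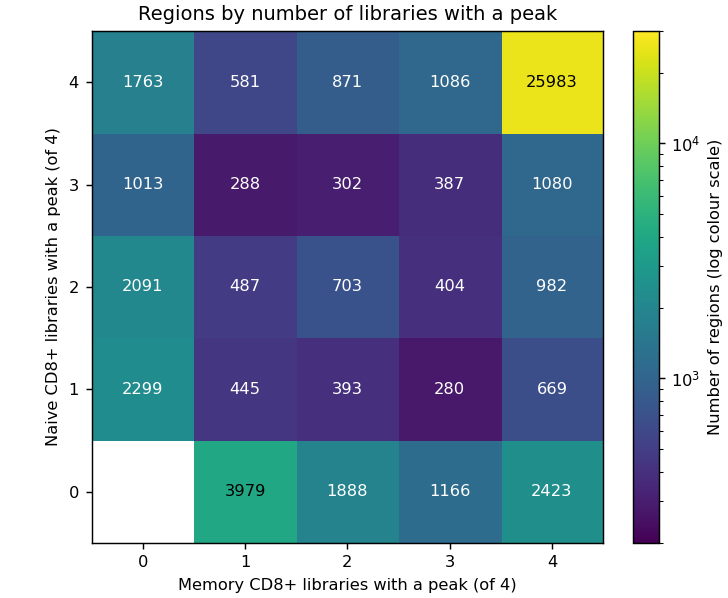
Number of regions by how many of the 4 naive (vertical axis) and the 4 memory CD8+ libraries (horizontal axis) had a peak in them, on a log colour scale. The corners with 25983 regions open everywhere, 1763 open in naive libraries alone and 2423 open in memory libraries alone hold more regions than the cells around them.

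The lists themselves differed in length in a way that touches these counts. Naive lists held 36307 and 37966 peaks in animal 1 (before, then after treatment) and 41396 and 41150 in animal 2. Memory lists held 40316 and 39426 peaks in animal 1 and 40744 and 39519 in animal 2, all inside the range of the naive ones. The means, 39205 ± 2484 naive and 40001 ± 636 memory (SD, n = 4 each), did not differ past the threshold (exact permutation test, two-sided, p = 0.571). The short naive list of animal 1 before treatment was the library that most often kept a region from being complete. Of the 1013 regions open in 3 naive and no memory library, it was the one without a peak in 715 (70.6%), against 170 for animal 1 after and 64 for each naive library of animal 2. On the memory side the 1166 regions open in 3 memory and no naive library lacked the peak in 371, 170, 218 and 407 cases in animal 1 before, animal 1 after, animal 2 before and animal 2 after. The counts of 1881 and 2061 above come from cutting every list to its 36307 peaks of highest score. With both naive libraries of animal 1 left out, 4296 regions were open in the remaining 2 naive and no memory library, and 3094 in the 4 memory and neither remaining naive library. These counts rest on unlike criteria, 2 naive peaks against 4 memory peaks, so they do not show that the memory excess turned.

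Memory lists covered more bases in every pair. Naive lists covered 51.4 and 52.0 Mb in animal 1 and 60.4 and 57.7 Mb in animal 2, and memory lists 55.4 and 63.1 Mb in animal 1 and 66.3 and 59.6 Mb in animal 2. The means were 55.4 ± 4.39 and 61.1 ± 4.68 Mb (SD, n = 4 each), and the ranges overlapped. The difference did not pass the test (exact permutation p = 0.143, two-sided, Benjamini-Hochberg adjusted p = 0.25 over 5 measures). Peaks at least 3 kb wide made up 6.95, 5.88, 7.57 and 6.83% of naive lists and 6.77, 10.3, 11.8 and 8.46% of memory lists, so 3 of the 4 memory lists lay above all naive ones. That measure (exact permutation p = 0.114), the median peak width (1085 ± 22.7 against 1158 ± 88.7 bp, exact permutation p = 0.171) and the share of peaks on the X chromosome (2.55 ± 0.138 against 2.69 ± 0.150%, exact permutation p = 0.2) each had an adjusted p of 0.25.

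The regions that separated the states were mostly weak and narrow peaks. They are set below against regions open in all 8 libraries, and values for the 1271 other regions open in 4 libraries are not given here. Weakness is thus not shown to be particular to regions that separate the states. Strength is given as the percentile of a peak's area score within its own list, where 100 is the strongest peak of that list. A region with several peaks in a list takes the highest of them. Scores of different lists were never compared directly. Naive regions had a median percentile of 21.7 and 27.8 in the naive libraries of animal 1 and of 37.2 and 35.6 in those of animal 2. Memory regions had a median of 32.6, 31.3, 33.7 and 26.3 in the 4 memory libraries, while regions open in all 8 libraries had medians of 62.5 to 67.2. The weakest medians of the naive regions were thus those of animal 1, the animal with the short naive lists. Only 110 naive (6.24%) and 132 memory regions (5.45%) lay above the 50th percentile in all 4 of their libraries, against 14769 (56.8%) of the common regions in all 8. None lay above the 75th percentile in all 4. Median region width was 985 bp for naive, 1096 bp for memory and 2050 bp for common regions, and 21 naive and 46 memory regions reached 3 kb. These widths merge the peaks of 4 lists for separated and of 8 lists for common regions, so they are not alike. Within single libraries the median bases covered were 691 to 887 bp for naive, 780 to 873 bp for memory and 1427 to 1826 bp for common regions.

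On every one of the 21 chromosomes at least as many regions were open in memory alone as in naive alone. These counts divide the same separated regions of the same lists, so chromosomes are not separate readings of the memory excess. Counts by chromosome for lists of equal length or for animal 2 alone are not given here. Memory regions made up from 50% of the separated regions on chromosome 20 to 67.1% on chromosome 8, and 60.5% on X. Chromosome 19 had the lowest share of separated regions in both directions, 1.74% naive and 2.44% memory of its 2419 regions. The highest shares were 4.39% naive on chromosome 17 and 5.92% memory on chromosome 4.

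A few separated regions were strong peaks. The naive region with the highest mean percentile lay at chr1:215555586-215561875. Its percentiles were 68.2 and 93.0 in animal 1 and 96.5 and 98.2 in animal 2, with 5354 to 6290 bp covered, and no memory CD8+ list had a peak there. The value of animal 1 before treatment was the lowest of the 4. The naive region next in order, at chr16:3954716-3957057, had percentiles of 74.3, 78.9, 88.6 and 85.8. The third, at chr15:112908526-112911792, had 72.6, 81.4, 81.3 and 83.8. Both were higher in both libraries of animal 2 than in animal 1 before treatment. The other 7 of the 10 naive regions ranked highest had mean percentiles of 71.5 to 76.2. In the fourth, at chr11:3343528-3345660, percentiles were 77.1 and 83.2 in animal 1 and 72.0 and 72.5 in animal 2, so animal 2 was the lower one there. The others lay at chr11:91748075-91750778, chr9:119986136-119989237, chr12:550450-554800, chr1:215551536-215555337, chr10:54632964-54635682 and chr2:127381193-127383211.

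The memory region with the highest mean percentile lay at chr11:10766200-10769721, with percentiles of 66.0 and 79.6 in animal 1 and 85.4 and 80.0 in animal 2 and 3095 to 3456 bp covered. The next, at chr1:55209143-55212394, had 84.8, 82.0, 77.6 and 62.6. The third, at chr13:66031231-66033642, had 76.0, 73.8, 78.7 and 69.4. The lowest value of the 3 regions came from animal 1 before treatment in the first and from animal 2 after treatment in the others. The other 7 of the 10 memory regions had mean percentiles of 70.1 to 73.8. They lay at chr6:144310862-144314360, chr2:102303955-102306810, chr1:132348273-132355055, chr16:32833651-32837605 and chr16:9909473-9911977, chr17:28682903-28685459 and chr13:3588356-3591000.

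Separated regions of the same direction lay near each other more often than regions of opposite directions. Another naive region lay within 50 kb of 37.9% of naive regions and a memory region within 50 kb of 6.47%. For memory regions these shares were 48.2% for another memory region and 4.99% for a naive one. Of the 1271 regions open in 4 libraries in another pattern, 12.3% had a naive and 15.9% a memory region within 50 kb. Naive regions were also farther from shared chromatin. The median distance to the nearest region open in all 8 libraries was 18336 bp for naive, 10650 bp for memory and 9838 bp for the other regions open in 4 libraries, and 476 (27.0%), 427 (17.6%) and 205 (16.1%) lay over 50 kb away. These distances are given as a description without a test.

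Joining separated regions of 1 direction at most 50 kb apart gave 1353 naive and 1674 memory groups. Most were single regions, 1094 naive and 1254 memory, while 16 naive and 47 memory groups held 5 or more. The naive group with the most separated regions spanned 149.8 kb at chr7:154624111-154773893 and held 10 of them among 22 regions. Naive libraries had 17, 18, 21 and 18 of the 22 open (animal 1 before and after, animal 2 before and after), and memory libraries 6, 6, 8 and 7. The other naive groups named by the rule had 9 of 25 regions at chr4:83152931-83271520, 7 of 9 at chr7:131041244-131086372, 7 of 8 at chr3:86409051-86527636 and 7 of 12 at chr4:37865076-38003418. In the 45.1 kb stretch on chromosome 7 no memory CD8+ library had any peak, while naive libraries had 7, 7, 8 and 8 of the 9 regions open.

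The first memory group spanned 111.1 kb at chr2:161931703-162042775. All 10 of its regions were open in every memory library, and naive libraries had 0, 1, 0 and 0 of them open. The further memory groups held 9 of 12 regions at chr3:59679974-59797331, 9 of 21 at chr10:86630795-86770842, 8 of 19 at chr4:123857819-123932794 and 8 of 17 at chr6:140195684-140290949. None of the 10 named groups held a separated region of the opposite direction.

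**Figure D2:**
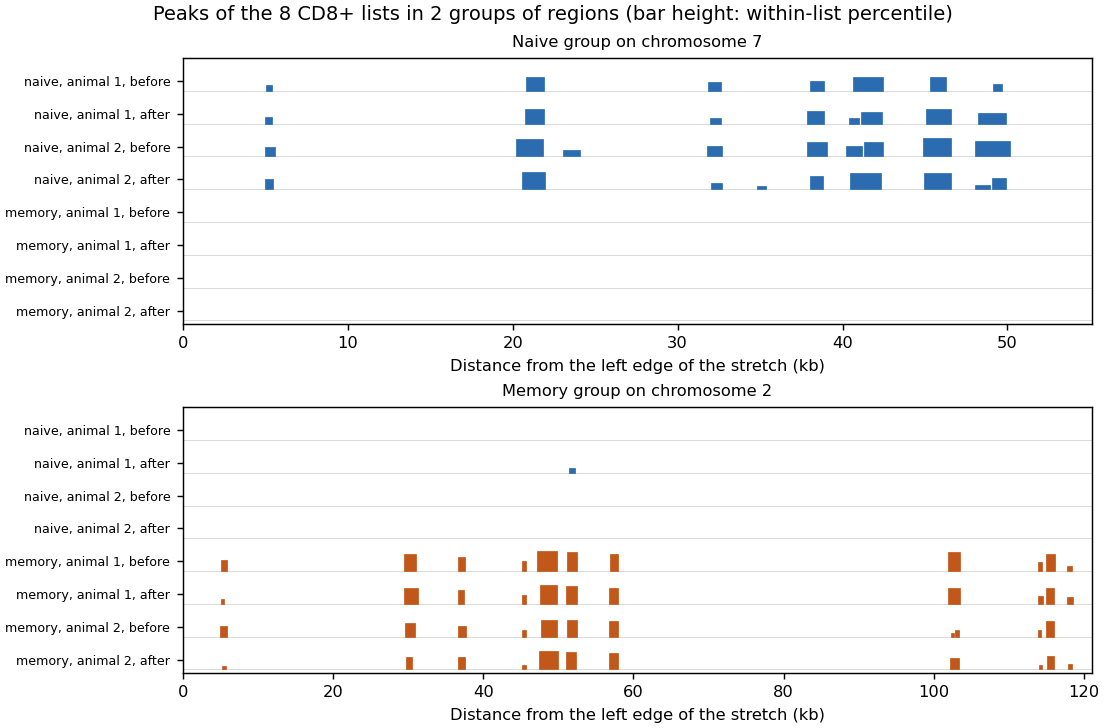
Peaks of each of the 8 CD8+ lists in the naive group on chromosome 7 that lacks memory peaks and in the memory group on chromosome 2, with 5 kb added at each end. The horizontal axis is the distance from the left edge in kb, and bar height rises with the percentile of the peak's area score in its list. Peaks recur at the same places in the 4 libraries of a state, and the other state has none on chromosome 7 and a single one on chromosome 2. These were the named groups with the lowest share of regions open in libraries of the opposite state, so the lack of its peaks was the criterion of choice. In the other named groups that share was 12.5 to 30.7% for naive and 16.7 to 35.5% for memory groups.

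The state difference was then read in libraries that had not chosen the regions. Animal 1 alone had 2825 regions open in both of its naive and neither of its memory libraries, and 4650 memory regions by the same criterion. Animal 2 had 4981 naive and 4103 memory regions. Memory regions chosen in animal 2 were open in 79.7 and 84.9% of cases in the memory libraries of animal 1 (before, then after) and in 12.8 and 12.0% in its naive libraries. Memory regions chosen in animal 1 were open in 78.3 and 73.4% in the memory libraries of animal 2 and in 15.9 and 14.7% in its naive libraries. Over both animals this was 79.0% ± 4.73 in memory against 13.9% ± 1.77 in naive libraries (SD, n = 4 each), with no overlap (exact permutation test, two-sided, p = 0.0286, the smallest 4 against 4 allows, adjusted p = 0.0286 over 4 readings). That test ignores the pairing of libraries by animal and time. Each animal both chose regions and read those chosen in the other, so regions separated in both animals count in both readings. Libraries of different animals also read different sets of regions. The 4 values of a state are thus not independent, here and for the naive regions below. The permutation test therefore does not make this reading one in further animals. With the replicate block, an exact sign-flip test over the 4 pairs, this and the other 3 readings given below had the same direction in every pair and p = 0.125, the smallest 4 pairs allow, so none passed.

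Naive regions gave a less even reading. Those chosen in animal 1 were open in 90.8% of cases in each of the naive libraries of animal 2 and in 21.7 and 19.0% in its memory libraries. Those chosen in animal 2 were open in 48.6 and 60.7% in the naive libraries of animal 1 and in 9.80 and 9.24% in its memory libraries. The naive mean was 72.7% ± 21.5 and the memory mean 14.9% ± 6.36 (SD, n = 4 each), without overlap (exact permutation p = 0.0286, two-sided, adjusted p = 0.0286). Without the memory library of animal 1 before treatment the adjusted p was 0.0571 and the difference 56.1 percentage points, and without that of animal 1 after treatment they were 0.0571 and 55.9. The naive libraries of animal 1 that read lowest were those with the shortest lists, and the part of list length in the reading was not tested beyond the lists of equal length, where the difference was 62.3 points. No region was naive in animal 1 and memory in animal 2, and 20 were memory in animal 1 and naive in animal 2.

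Many regions separated the states at both times. Taken at 1 time, with both animals required, the libraries before treatment separated 2400 naive and 3647 memory regions and those after it 3151 and 3695. The 1763 naive regions shared by both times were 73.5% of the set before and 56.0% of the set after, and the 2423 memory regions were 66.4% and 65.6%. Naive regions chosen before treatment were open after it in 89.5% of cases in naive cells of animal 1 and 94.3% in those of animal 2, against 8.58 and 8.92% in memory cells. Naive regions chosen after treatment were open before it in 71.0 and 94.7% in naive and 8.19 and 11.2% in memory cells. The value of 71.0% belonged to the short naive list of animal 1 before treatment. Memory regions chosen before treatment were open after it in 88.7 and 80.9% in memory and 7.21 and 6.55% in naive cells. The same 2 animals gave both times, so these shares are not a reading in other animals. Only 2 regions were naive before and memory after treatment, and 2 the reverse.

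Regions that separated the states in CD8+ cells also differed between the states in the CD4+ libraries of the same animals and times, which had no part in choosing them. CD4+ T cells are the helper lineage and recognise antigen on MHC class II. Naive CD8+ regions were open in 81.7, 82.5, 77.3 and 76.4% of cases in naive CD4+ libraries and in 38.8, 42.5, 40.3 and 37.0% in memory CD4+ libraries. The means were 79.5% ± 3.07 and 39.7% ± 2.34 (SD, n = 4 each, exact permutation p = 0.0286, two-sided, adjusted p = 0.0286). Memory CD8+ regions were open in 14.2, 12.2, 14.2 and 12.7% in naive CD4+ libraries and in 48.5, 54.2, 50.5 and 46.5% in memory CD4+ libraries, with means of 13.3% ± 1.03 and 49.9% ± 3.27 (SD, n = 4 each, exact permutation p = 0.0286, two-sided, adjusted p = 0.0286). In neither reading did the groups overlap. The other regions open in 4 CD8+ libraries were open in 50.04 to 63.7% in every CD4+ library, and common CD8+ regions in 97.0 to 98.3%.

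The 2 sets had different patterns in CD4+ cells. Of the naive CD8+ regions 212 (12.0%) were open in no CD4+ library and 480 (27.2%) in all 8. Of the memory CD8+ regions 944 (39.0%) were open in no CD4+ library and 146 (6.03%) in all 8. Complete separation in the same direction in CD4+ cells was seen for 380 naive (21.6%) and 479 memory regions (19.8%), and in the opposite direction for 0 and 0. More CD4+ libraries of the opposite state were open at 11 naive and 12 memory regions. The difference between the sets in these patterns was not tested. Of the named regions, the naive ones on chromosome 15 at 112908526, chromosome 11 at 3343528 and chromosome 2 at 127381193 were open in 4 naive and 0 memory CD4+ libraries. The naive one on chromosome 11 at 91748075 had no CD4+ peak, and those on chromosome 1 at 215555586 and 215551536, chromosome 16 at 3954716 and chromosome 10 at 54632964 were open in all 8 CD4+ libraries. The remaining naive ones were open in 4 naive and 3 memory (chromosome 9 at 119986136) and in 2 naive and 0 memory CD4+ libraries (chromosome 12 at 550450). Among memory ones, those on chromosome 1 at 55209143 and chromosome 13 at 3588356 were open in 0 naive and 4 memory CD4+ libraries, and those on chromosome 11 at 10766200, chromosome 13 at 66031231, chromosome 6 at 144310862 and chromosome 16 at 32833651 and 9909473 in none. The memory one on chromosome 17 at 28682903 was open in all 8 CD4+ libraries, and those on chromosome 2 at 102303955 and chromosome 1 at 132348273 in 0 naive and in 2 and 3 memory ones.

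**Figure D3:**
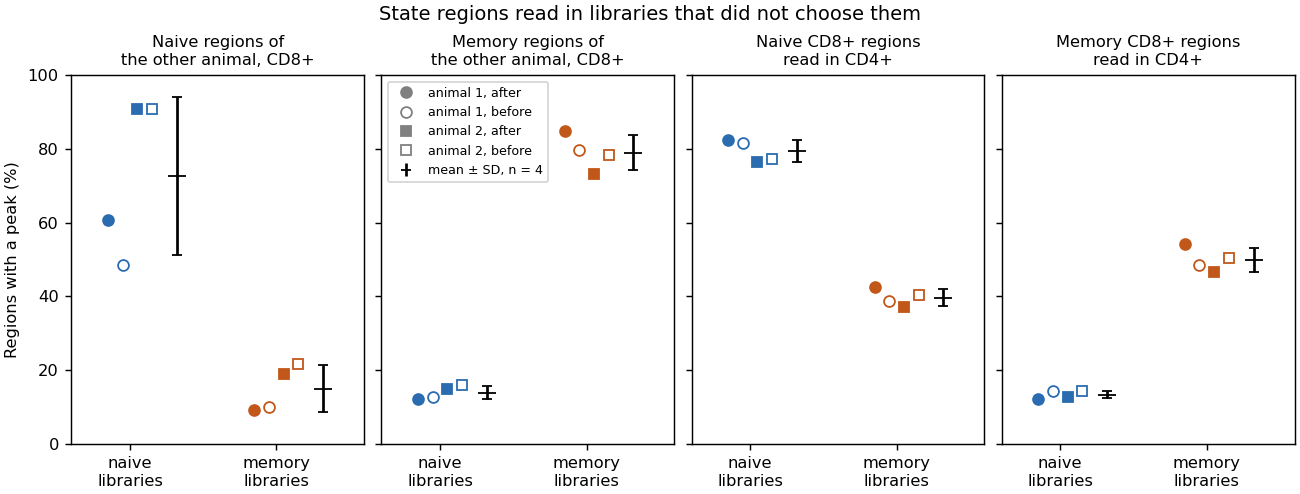
Share of regions with a peak (%, vertical axis) in each library that did not choose the regions, for naive and memory regions of the other animal (CD8+ libraries, first 2 panels) and for separated CD8+ regions read in CD4+ libraries (last 2 panels). Circles are animal 1, squares animal 2, open symbols before and filled symbols after treatment, and bars give the mean ± SD of 4 libraries. In every panel the libraries of the state named in the title lie above all those of the opposite state, and the naive CD8+ libraries of animal 1 lie at 48.6 and 60.7%, below the 90.8% of animal 2.

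Presence leaves out the 25983 regions open in all 8 libraries, where the states can differ in how wide or how strong a peak is. Of these, 21056 (81.0%) were a single peak in every library. Width was taken as the bases covered by peaks in the region, on the log2 scale, with each library centred on its median over these regions. Naive libraries had median widths of 1456, 1427, 1565 and 1517 bp and memory libraries of 1476, 1723, 1826 and 1591 bp. After centring, 1563 regions (6.02%) were wider in naive and 1489 (5.73%) wider in memory cells (limma, Benjamini-Hochberg adjusted p under the 0.05 threshold). Of these, 1520 and 1419 had widths that did not overlap between the states. This is a description, since the same values chose the regions, and the share over all common regions is not given here. A difference of at least 0.5 in log2 width was reached by 1024 and 1107 of the regions past the threshold and one of at least 1 by 244 and 317. Most regions differed little, and 68.2% lay within 0.25 of zero. Without centring, which leaves the greater widths of memory libraries in the values and moves the median difference from 0.05 to -0.10 on the log2 scale (naive minus memory), 611 regions were wider in naive and 2293 in memory cells. The count of wider naive regions also fell when 1 naive library was left out, to 958 without animal 1 after, 893 without animal 2 before and 839 without animal 2 after treatment. These fits, and those of rank below, took the 8 libraries as independent although they came from 2 animals. Their p-values do not cover the spread between many animals. With animal and time as a block limma called 1434 naive and 1410 memory width regions, of which 1196 and 1219 were shared with the calls above.

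Rank by area score separated the states at more regions than width did. Each common region was ranked within its library among the 25983 by the highest area score of its peaks. Ranks were turned into normal scores, which have an SD of 1 in each library. A region split into several peaks takes only the highest of their scores, so splitting can lower its rank by construction. How much it did so was not tested. Ranks were higher in naive cells at 3521 regions (13.6%) and higher in memory cells at 3267 (12.6%) (limma, adjusted p under the same threshold). The states did not overlap at 3350 and 3109 of them, again a description of regions chosen by the same values. The share over all common regions is not given here either. A difference of at least 1 was reached by 470 naive and 668 memory regions. With percentiles of the whole list in place of the normal score the split was 2450 to 3515. Without the naive library of animal 2 after treatment the naive count was 2228. Both measures passed at 2364 regions, of which 1217 were wider and ranked higher in naive cells, 1146 wider and ranked higher in memory cells, and 1 went in opposite directions. Across the 25983 regions the 2 differences had a Pearson correlation of 0.80, which is a description, since a wider peak has a larger area by construction and regions share libraries. Width or rank passed at 7476 common regions (28.8%).

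**Figure D4:**
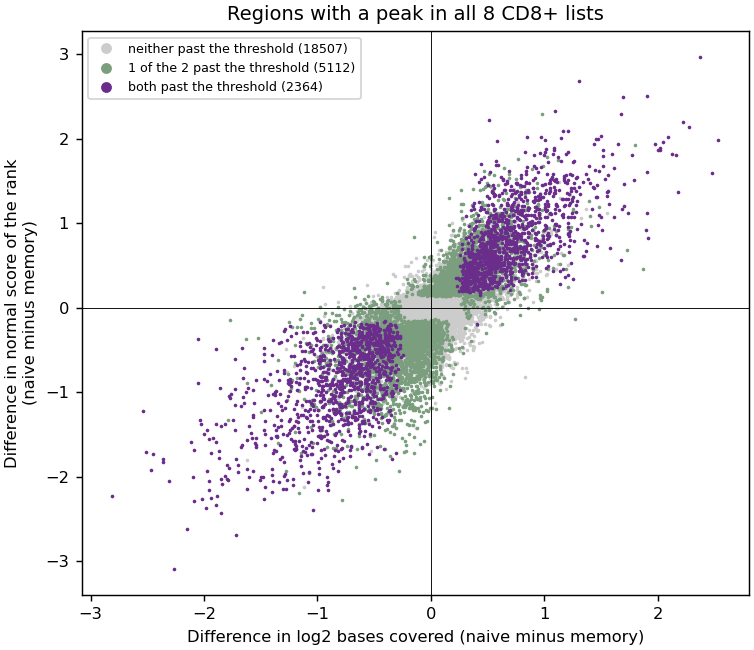
Difference between naive and memory libraries in log2 bases covered (horizontal axis) and in the normal score of the rank by area score (vertical axis) for the 25983 regions open in all 8 CD8+ lists, 1 dot per region. Purple dots (2364) passed the test for both measures, green dots for 1 of them and grey dots (18507) for neither. Nearly all purple dots lie where both differences have the same sign.

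Common regions that ranked higher in a state had a region open in that state alone nearby more often than common regions in general, though most had none within 50 kb. A naive separated region lay within 50 kb of 25.0% of the regions ranked higher in naive cells, and a memory one within 50 kb of 8.58%. Of the regions ranked higher in memory cells, 43.1% had a memory and 8.45% a naive separated region within 50 kb. Over all common regions these shares were 18.2% for memory and 12.9% for naive. The shares are given as a description.

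The widest difference towards naive cells was at chr9:124567716-124572037. Peaks there covered 3114, 3800, 4322 and 3425 bp in naive and 730, 638, 687 and 727 bp in memory libraries, a log2 difference of 2.53 (SE 0.13, limma adjusted p = 2.5e-05). At chr10:22476556-22480076 naive peaks covered 3078 to 3521 bp and memory peaks 584 to 932 bp, a difference of 2.28 (SE 0.17, limma adjusted p = 0.000125). The groups did not overlap at either. The others named for width, at chr2:129802441-129807855, chr1:215569865-215573369 and chr3:34167940-34171074, had log2 differences of 2.48, 2.37 and 2.22.

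Towards memory cells the widest difference was at chr11:9945827-9950313, where naive peaks covered 488, 595, 495 and 456 bp and memory peaks 4467, 3821, 4387 and 3182 bp. The log2 difference was -2.81 (SE 0.15, limma adjusted p = 2.62e-05). At chr15:10580627-10588294 naive peaks covered 844 to 1858 bp and memory peaks 6803 to 7528 bp (-2.51, SE 0.24, limma adjusted p = 0.0005). At chr8:129017738-129022159 the spans were 467 to 917 bp and 4026 to 4415 bp (-2.45, SE 0.19). The remaining memory regions were less even. At chr19:37979815-37985958 the memory library of animal 1 before treatment had 864 bp against 4035, 4815 and 5376 bp in the other 3. At chr14:11682825-11692588 the naive library of animal 1 before treatment had 5017 bp against 835, 639 and 1744 bp, with memory at 8634 to 9321 bp. The latter had limma adjusted p = 0.0238, which rose to between 0.0517 and 0.0635 when memory of animal 1 before, naive of animal 1 after, memory of animal 1 after, memory of animal 2 before or naive of animal 2 after treatment was left out.

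By rank, a region at chr18:73837829-73843515 stood near the top of the naive lists. Its percentiles were 96.7, 97.8, 99.4 and 99.2 in naive and 41.1, 39.0, 58.1 and 45.3 in memory libraries, a difference of 2.68 in normal score (SE 0.18, limma adjusted p = 0.000162). It was 1 peak in each naive list and 2 or 3 peaks in each memory list. At chr17:91253873-91258074 naive percentiles were 76.6, 90.2, 95.5 and 95.4 and memory percentiles 9.50, 21.6, 54.2 and 25.4 (2.51, SE 0.37). At chr11:49295079-49297276 they were 55.8 to 65.5 and 2.49 to 11.9 (2.32, SE 0.13). At chr13:33967652-33970149 the memory library of animal 1 before treatment had 64.1, near the naive 77.4 to 82.6, while the other memory libraries had 10.4, 0.631 and 10.5. That difference (2.49, SE 0.60, limma adjusted p = 0.0193) had an adjusted p of 0.0522 without the memory library of animal 1 after treatment.

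The largest difference in rank towards memory cells was at chr2:102385982-102391576, with percentiles of 98.1, 98.6, 96.6 and 95.6 in memory and 49.8, 41.6, 11.8 and 12.8 in naive libraries (-3.09, SE 0.42, limma adjusted p = 0.00226). The separated memory region on chromosome 2 at 102303955 named above lies 79171 bp from the nearest common region. At chr7:47199553-47202287 memory percentiles were 65.7 to 80.1 and naive ones 1.82 to 14.4 (-2.62, SE 0.25). At chr13:6191701-6195826 they were 88.2 to 91.3 and 1.81 to 43.2 (-2.42, SE 0.50). At chr1:139422352-139427354 they were 95.6 to 98.0 and 23.0 to 61.9 (-2.39, SE 0.33), and this region was open in 0 naive and 4 memory CD4+ libraries.

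A memory domain at chr1:94809279-94834482 was among the strongest peaks of all memory lists. Memory peaks covered 23461, 24104, 24363 and 24248 bp of its 25204 bp, in 3, 2, 5 and 1 peaks, and stood at percentiles of 99.97, 99.93, 99.2 and 99.95. Naive peaks covered 8885, 6025, 6900 and 5216 bp in 5, 4, 4 and 4 peaks, at percentiles of 82.3, 70.1, 68.6 and 69.2. The log2 width difference was -1.71 (SE 0.16, limma adjusted p = 0.000453) and the difference in normal score -2.68 (SE 0.24, limma adjusted p = 0.000469). The region beside it, at 94834914 to 94855319, was long in both states, with 13318 to 17000 bp covered in naive and 19874 to 20243 bp in memory cells. Its rank was higher in memory cells (-1.93, SE 0.10, limma adjusted p = 6.5e-05), while its width difference of -0.28 (SE 0.10) did not pass (limma adjusted p = 0.117). Of the 14 regions from 50 kb before to 50 kb after the domain, 8 were open in all 8 libraries and none was open in 4 memory and 0 naive libraries. The domain was open in all CD4+ libraries.

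The naive neighbourhood on chromosome 1 around 215555586 showed presence and strength together. Of 10 regions within 50 kb on either side, 4 were open in 4 naive and 0 memory CD8+ libraries, 6 had no memory peak and 2 were open in all 8. One of these 2, at 215569865 to 215573369, covered 2524, 2295, 2632 and 3388 bp in naive and 588, 734, 582 and 426 bp in memory libraries. Its percentiles were 74.1, 76.5, 79.1 and 80.6 in naive and 11.7, 6.65, 10.4 and 0.729 in memory libraries, the largest difference in rank towards naive cells among the regions tested (2.97, SE 0.26, limma adjusted p = 0.000459). The other, at 215508146 to 215509368, ranked higher in naive cells as well (0.72, SE 0.10, limma adjusted p = 0.00208), and its width difference of 0.40 (SE 0.18) did not pass (limma adjusted p = 0.191). The separated regions at 215551536 and 215555586 and the common one at 215569865 were open in all 8 CD4+ libraries.

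**Figure D5:**
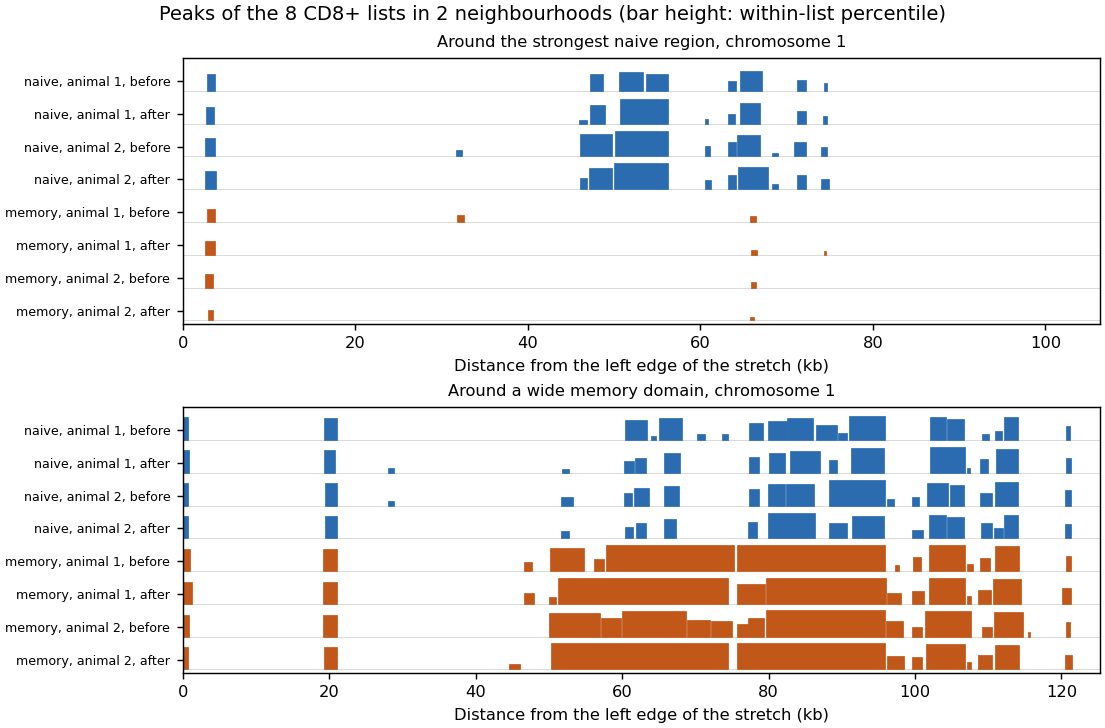
Peaks of each of the 8 CD8+ lists within 50 kb of the naive region on chromosome 1 with the highest mean percentile (top) and of the wide memory domain on chromosome 1 (bottom). The horizontal axis is the distance from the left edge in kb, and bar height rises with the percentile of the peak's area score in its list. Naive lists have a cluster of peaks where memory lists have small peaks or none, and memory lists have an almost unbroken stretch of peaks where naive lists have short pieces.

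The difference between states was also set against time and animal at the common regions. A limma interaction of state with time passed at 0 regions, for width (694 at an unadjusted p under 0.05, 2.67%) and for rank (534, 2.06%). The interaction of state with animal also passed at 0 regions, with 1484 (5.71%) for width and 1744 (6.71%) for rank at an unadjusted p under 0.05 and smallest adjusted p-values of 0.114 and 0.0732. With 2 libraries in each cell of these models the counts do not show that the state difference was equal between animals or times. Within animal 1 alone limma called 608 regions ranked higher in naive and 836 in memory cells, and within animal 2 alone 1763 and 1841. In these fits the 2 libraries of a state were 1 animal before and after treatment, so no spread between animals is covered. Within the libraries before treatment alone limma called 0 and 0 (2161 and 2425 at an unadjusted p under 0.05), and after treatment alone 321 and 457.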

How the data were processed

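Per the labels' protocols, each library came from 10000 sorted cells and was amplified for 11 to 15 cycles. The submitters' processing notes name cutadapt 1.18, Bowtie2 2.3.4.1, Genrich 0.6 and the build rheMac10. For caller settings, read shifting and duplicate handling nothing is given in the sources used here. The authors deposited 1 peak list per library, with an area score per peak (lowest 200) and a summit −log10 p (2.42 to 16.3), both as deposited. Both are the authors' own values and served to order or filter peaks inside 1 list, never between lists. Titles give animal 2 a single name while names of its lists number it differently by population, and the titles were followed, so if the numbers meant different animals the pairing would not hold there. Pairs come from the titles, the same animal at the same time.

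Presence was tested with Fisher's exact test, width and rank with limma 3.58.1 in R 4.3.3, measures per library with exact permutation tests (scipy 1.17.1), all two-sided at a threshold of 0.05 with Benjamini-Hochberg adjustment over all regions or measures tested. The tests were also run on simulated data. For limma these had independent noise in each library and no pairing by animal, so they do not cover the effect of shared animals. Named regions were, in each direction, the 10 separated regions of highest mean percentile, the 5 groups with most regions, and the 5 regions past the threshold with the largest difference in width and in rank. The 2 neighbourhoods drawn around named regions were chosen after their values were seen. The 2 groups drawn were the named naive and memory groups with the lowest share of regions open in libraries of the opposite state. Members and lists were chosen with earlier results of these data known. Marker genes need an annotation of rheMac10 and were not used here. Alternatives were lists of equal length, a summit −log10 p of at least 3.42, autosomes, 50% coverage, windows of 500 bp, other filters, scales and pairings, each time or animal alone, and each library left out. Python 3.11.15, numpy 2.4.6, pandas 2.3.3 and matplotlib 3.10.9 were used.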

Additional observations from a re-analysis of the deposited data

Results flagged for a closer look

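Of 82 groups of 4 values at the named regions, 7 had a value far from the other 3 (Dixon's criterion, which chance exceeds in about 1 group in 20). In memory libraries these were the percentile of 68.3 in animal 2 after treatment at the separated region on chromosome 2 at 102303955, where the others lay at 74.9 to 75.5, and that of 80.4 in animal 2 before treatment at the separated region on chromosome 1 at 132348273, where the others lay at 68.1 to 69.6. In animal 1 before treatment they were the 475 bp covered at the region on chromosome 3 at 34167940 (747 to 776 bp in the others), the percentile of 64.1 on chromosome 13 at 33967652 and that of 95.6 on chromosome 1 at 139422352 (97.7 to 98.0 in the others). At the wide domain on chromosome 1 at 94809279 the percentile of 82.3 in naive cells of animal 1 before treatment and that of 99.2 in memory cells of animal 2 before treatment stood apart. Of the 7 values, 4 came from animal 1 before treatment.

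The number of peaks differed between the states in opposite directions in the animals. The mean of naive minus memory was -2734.5 peaks in animal 1 (-4009 before and -1460 after treatment) and 1141.5 in animal 2 (652 and 1631). This difference between animals was not tested.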

How the results depend on the processing

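Naive and memory separated regions numbered 1140 and 1897 at the stricter threshold, 0 and 0 with regions open in 2 to 6 libraries tested (9792 regions at the smallest p were needed) and 0 and 0 under the replicate block. Uncalled complete separations numbered 2400 and 3647 before treatment, 3151 and 3695 after, 2825 and 4650 in animal 1, 4981 and 4103 in animal 2, and 4296 and 3094 without both naive libraries of animal 1. In the last setting a naive region needed fewer peaks than a memory region, so its counts are not alike. Leaving out each library gave 0 to 0 calls with 1827 to 2478 naive and 2541 to 2830 memory separations. With equal lengths, autosomes, windows or 50% coverage, counts were 1731 to 1951 naive and 2061 to 2793 memory.

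Wider regions in naive cells numbered 951 at the stricter threshold, 611 without centring (memory 2293) and 788 without both naive libraries of animal 1, and 839 to 1519 with each library left out. Wider regions by naive and memory numbered 0 and 0 before treatment (1868 and 1576 at an unadjusted p under 0.05, limma), 173 and 241 after, 327 and 435 in animal 1 and 382 and 512 in animal 2. Regions ranked higher numbered 0 and 0, 321 and 457, 608 and 836, and 1763 and 1841 in the same order. Those ranked higher in naive cells numbered 1970 without both naive libraries of animal 1 and 2228 to 3453 with each library left out. These fits hold fewer samples, and other causes were not tested. Under the replicate block limma called 1434 and 1410 for width and 3589 and 3333 for rank. It kept 1196 of 1563 naive and 1219 of 1489 memory width calls and 2973 of 3521 naive and 2873 of 3267 memory rank calls, and all named width and rank regions. With the block as an exact sign-flip test, the 4 readings, with differences (naive minus memory) of 57.8 and -65.2 points in the other animal and 39.8 and -36.6 in CD4+ libraries, had p = 0.125 and none passed.

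The difference in number of peaks ran from -1527 to 169.4 with each library left out, the latter without naive cells of animal 1 before treatment. The naive reading in the other animal ran from 51.8 to 65.8 points. The fits without both naive libraries of animal 1, and the alternatives of the readings (block included) and of the measures per library with a library left out, were chosen after seeing the data. No result reversed past its threshold. Named regions kept their direction. None of the 20 separated ones was called with regions open in 2 to 6 libraries, with the block or with any libraries left out, and 78 of 80 values stayed called under the 4 settings of list length, threshold, windows and coverage. For width 16 of 89 and for rank 15 of 85 values of named regions missed the threshold under the settings other than single libraries left out. Read depth is unknown, and it limits every statement on a missing peak.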
